A study of Arabidopsis thaliana with 18 samples.

Results

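A set of 47 probesets read lower in Arabidopsis root protoplasts over-expressing IAA19mII or IAA7mII than in protoplasts carrying an empty vector, both with the auxin indole-3-acetic acid (IAA) and in mock. They were chosen by that difference. Of 22746 probesets, 8626 had a mean signal of 100 or more in both empty vector groups, and 47 of these had a group mean of log2(signal + 16) at least 1.5 below the empty vector in all 4 comparisons (each over-expressor with IAA and in mock), a fall of at least 2.83-fold on that scale. Without the signal minimum there would be 54, and the mirror rule, higher by 1.5 in all 4 comparisons with the same signal minimum, gave 55. Of the 47, 19 match 1 gene in the probe annotation used here, 0 match several and 28 match none and are given by probeset only.

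Expression was measured on 18 ATH1 arrays, 3 for each of 6 groups. These were protoplasts transformed with the IAA19mII over-expressor (pBeaconRFP_IAA19mII), the IAA7mII over-expressor (pBeaconRFP_IAA7mII) or the empty vector (pMON999_mRFP), each given 5 µM IAA or solvent alone (mock) for 3 h. All came from Col-0 seedlings carrying Pwer::GFP, a green reporter driven in the lateral root cap and epidermis by the promoter of WEREWOLF. The seedlings were 7 days old, their roots were digested for 3 h, the plasmids were introduced with polyethylene glycol, the cells stood overnight before treatment, and only cells with both labels were sorted. The promoter that drives IAA19mII or IAA7mII is not given in the labels used here, and the empty vector is another plasmid than the backbone of both over-expressors, so plasmid and transgene cannot be told apart in any comparison with it.

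IAA7 and IAA19 are Aux/IAA proteins, which bind auxin response factors and hold auxin-induced genes repressed. Auxin joins them to an F-box receptor through their domain II and so has them degraded, which frees the response factors. What mII stands for is not spelled out in the labels and is taken to be a mutation of that domain; Aux/IAA proteins so mutated are stable in the presence of auxin and keep repressing.

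Signals are MAS5 intensities, the linear brightness of a probeset as deposited. Changes are differences of log2(signal + 16), given with standard errors from a limma fit to all 16892 probesets that passed a filter on low signal. All 47 members passed it. Folds on this scale understate changes that end in low signals. The errors are pooled over the 6 groups although the median SD of a probeset was 0.345 to 0.438 in the over-expressor groups and 0.262 to 0.287 in the empty vector groups. Whether replicates came from separate cultures is not stated in the labels, and the p-values therefore reflect the spread of these arrays, possibly a technical one. In bulk RNA, fewer cells of a type and less RNA per cell cannot be told apart.

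The arrays had been scaled to nearly the same trimmed mean, 246.5 to 247.2 with the over-expressors and 247.2 to 247.6 with the empty vector, while their 75th percentiles were 219.6 to 238.4 and 264.0 to 274.8. The median of all tested probesets was correspondingly shifted against the empty vector, by -0.17 for IAA19mII with IAA, -0.14 for IAA19mII in mock, -0.17 for IAA7mII with IAA and -0.09 for IAA7mII in mock. With each array centred on its median the members' log2 changes were -1.31 or below, and after quantile normalization -1.27 or below; the choice of members left no room for a change of sign. Of the 35 markers of root and leaf cell types listed, 3 had a named probeset that passed the filter. TRY, an epidermal MYB gene, was higher by 1.25 ± 0.37 in IAA19mII than in empty vector cells with IAA (limma adjusted p = 0.0153), and AGL42, a quiescent centre marker, by 1.1 ± 0.39 (limma adjusted p = 0.0401). In mock TRY was higher with IAA19mII by 1.07 ± 0.37 (limma adjusted p = 0.0522). After median centring, and after quantile normalization, TRY was called higher in 2 of the 4 comparisons with the empty vector. The summed signal of TRY and EXPA7, the 2 epidermal markers tested of 10, was 151 to 193 with IAA19mII and 33.2 to 76.9 with IAA7mII, against 36.1 to 237 with the empty vector (arrays with IAA), and 95.1 to 249, 42.0 to 59.1 and 60.8 to 70.2 in mock. AT1G62500, the 1 endodermis and cortex marker with a named probeset, did not pass the filter, with group means of 10.7 (IAA19mII with IAA), 6.13 (IAA19mII in mock), 14.0 (IAA7mII with IAA) and 3.93 (IAA7mII in mock), against 8.67 and 4.03 with the empty vector. WER itself and the markers of the lateral root cap and stele were not analysed here. The part of these differences in the members' falls was not tested.

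The members' falls were a description of the choice, and no test was read from them. The median log2 change over the 47 was -2.14 for IAA19mII with IAA (range -4.88 to -1.51), -1.80 for IAA19mII in mock (-2.86 to -1.502), -2.30 for IAA7mII with IAA (-4.94 to -1.53) and -2.00 for IAA7mII in mock (-3.51 to -1.52). As folds, the median members were 4.41-fold, 3.48-fold, 4.91-fold and 4.01-fold lower in the same order. With the authors' scaling all 47 were past the limma threshold (adjusted p under 0.05) as lower in each comparison, as the rule all but ensured. For IAA19mII in mock it was 46 after median centring and 44 after quantile normalization, and for IAA7mII in mock 45 after quantile normalization. With the authors' scaling the share of all tested probesets called lower was 14.3% for IAA19mII with IAA, 7.83% for IAA19mII in mock, 11.7% for IAA7mII with IAA and 6.09% for IAA7mII in mock. For 37 of the 47, every one of the 12 over-expressor arrays read below every one of the 6 empty vector arrays, as did 4.51% of all tested probesets. The other 10 overlapped across treatments but not within a treatment. Within a treatment the 3 arrays of an over-expressor read below the 3 of the empty vector for all 47 members in each of the 4 comparisons. The rule favoured this outcome, and the share of all tested probesets without such overlap was not counted.

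Averaged over the 47 members, log2(signal + 16) was 6.85 to 7.29 on the IAA19mII arrays with IAA, 6.68 to 7.02 on those in mock, 6.66 to 7.27 with IAA7mII and IAA and 6.53 to 6.62 with IAA7mII in mock, against 9.36 to 9.48 with the empty vector and IAA and 8.59 to 8.82 with the empty vector in mock. Every over-expressor array thus lay below every empty vector array, which the choice of members fixed. Many members ended near the array's dark end. Between 4 and 11 of the 47 read under the 40th percentile of an over-expressor array and 0 did so on any empty vector array. A total of 22 members were that low on at least 1 over-expressor array and 8 on 6 or more of the 12, and the table used here holds no detection calls.

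**Figure D1:**
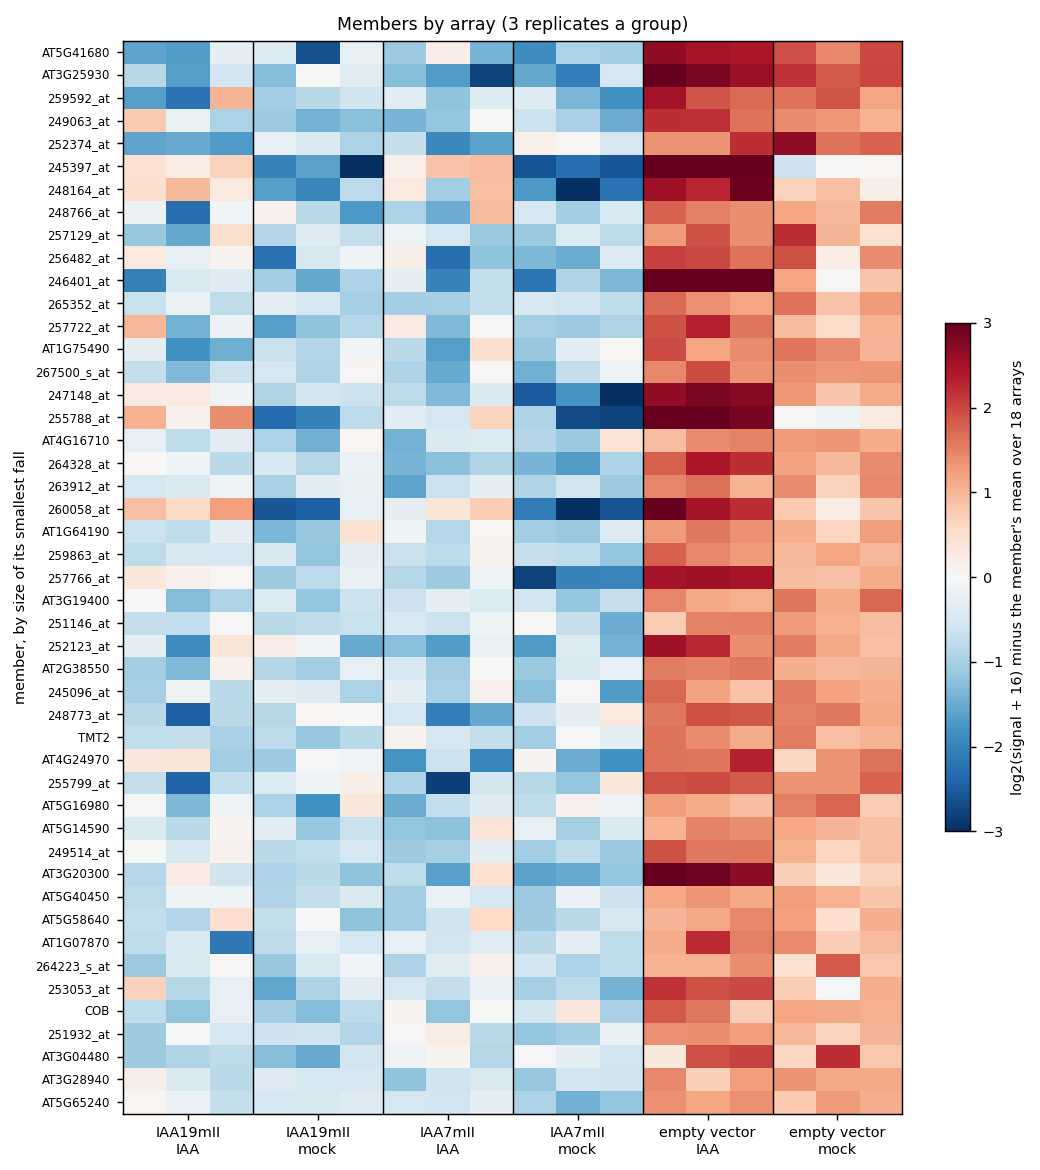
Each row is 1 of the 47 members, ordered by the size of its smallest fall, and each column 1 of the 18 arrays in 6 groups of 3; colour is log2(signal + 16) minus the member's mean over all arrays (red higher, blue lower). The 12 over-expressor columns are mostly blue and the 6 empty vector columns mostly red. Among others, 245397_at, 247148_at, 248164_at, 255788_at, 257766_at and 260058_at are also higher with IAA than in mock within each population.

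The named members hold several genes for enzymes of carbohydrate and redox metabolism. AT1G64190 encodes a 6-phosphogluconate dehydrogenase, which yields NADPH in the oxidative pentose phosphate pathway. With IAA it read 226, 207 and 295 with IAA19mII and 332, 193 and 374 with IAA7mII, against 901, 1122 and 956 with the empty vector. In mock it read 129, 155 and 503 with IAA19mII and 168, 158 and 274 with IAA7mII, against 793, 576 and 887 with the empty vector. The arrays of each over-expressor lay below all empty vector arrays, although IAA19mII mock replicate 3, at 503, stood above the other 2 of its group. The changes were -1.97 (IAA19mII with IAA), -1.69 (IAA19mII in mock), -1.72 (IAA7mII with IAA) and -1.85 (IAA7mII in mock), each ± 0.35.

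AT5G14590, an NADP-dependent isocitrate dehydrogenase gene, belongs to another family of NADPH-yielding enzymes. Its signals with IAA were 164, 122 and 240.1 with IAA19mII and 91.1, 88.0 and 300.1 with IAA7mII, against 489, 669 and 626 with the empty vector. Its signals in mock were 176, 94.8 and 136 with IAA19mII and 189, 107 and 165 with IAA7mII, against 530.3, 474 and 434 with the empty vector. Again no over-expressor array reached an empty vector array, the nearest being IAA7mII IAA replicate 3. The changes were -1.71 (IAA19mII with IAA), -1.74 (IAA19mII in mock), -1.99 (IAA7mII with IAA) and -1.57 (IAA7mII in mock), each ± 0.36.

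AT5G16980 belongs to a family of zinc-binding reductases that includes 2-alkenal reductase, which detoxifies reactive carbonyls. Its signal was 0.6 to 57.9 on the 12 over-expressor arrays, against 84.2 to 182 on the 6 empty vector arrays, and on 6 of the 12 over-expressor arrays it lay under the array's 40th percentile. Its closest relatives are its neighbours on chromosome 5, so signal from these genes on the same probes was not tested. AT4G16710, a glycosyltransferase family gene, read 2.2 to 49.6 on the 12 over-expressor arrays, against 77.0 to 121 on the 6 empty vector arrays, and under the 40th percentile on 10 of the 12, the most of any member. Its falls, -1.72 (IAA19mII with IAA), -2.02 (IAA19mII in mock), -2.03 (IAA7mII with IAA) and -1.77 (IAA7mII in mock), each ± 0.44, therefore rest on over-expressor signals near the bottom of the scale.

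AT5G58640, of the selenoprotein-like Rdx family, read 96.7 to 377 on the 12 over-expressor arrays, against 351 to 694 on the 6 empty vector arrays. It was 1 of 2 named members whose over-expressor and empty vector arrays overlapped across treatments, and the overlap was between IAA7mII IAA replicate 3 (377) and empty vector mock replicate 2 (351). AT3G19400, a gene for a papain-like cysteine protease, read 92.8 to 255 on the 12 over-expressor arrays, against 548 to 880.2 on the 6 empty vector arrays, with falls of 3.90-fold and 4.66-fold for IAA19mII (with IAA and in mock) and 3.17-fold and 4.87-fold for IAA7mII.

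Transport across internal membranes was represented by TMT2 and AT2G38550. TMT2 encodes a tonoplast monosaccharide transporter, which loads sugars into the vacuole. Under IAA, TMT2 read 78.1, 80.8 and 64.4 with IAA19mII and 155, 96.1 and 79.6 with IAA7mII, against 471, 409.5 and 324 with the empty vector. Under mock treatment it read 76.4, 55.5 and 74.9 with IAA19mII and 61.1, 138 and 112 with IAA7mII, against 446, 281 and 307 with the empty vector. The IAA19mII arrays formed a narrow band of 55.5 to 80.8, and the highest of the 12 over-expressor arrays was below the lowest empty vector array (155 against 281). TMT2 was lower by 4.58-fold (IAA19mII with IAA), 4.19-fold (IAA19mII in mock), 3.38-fold (IAA7mII with IAA) and 3.07-fold (IAA7mII in mock). AT2G38550 belongs to the FAX family of plastid fatty acid exporters. It read 119 to 354 on the 12 over-expressor arrays, against 657 to 985 on the 6 empty vector arrays, with changes of -2.27 (IAA19mII with IAA), -1.76 (IAA19mII in mock), -2.05 (IAA7mII with IAA) and -1.64 (IAA7mII in mock), each ± 0.33.

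Several named members encode kinases or proteins of signalling families. AT5G41680, a protein kinase gene, had the largest smallest fall of all 47. With IAA it read 36.4, 32.8 and 114 with IAA19mII and 57.1, 165 and 44.0 with IAA7mII, against 966, 858 and 825 with the empty vector. In mock it read 102, 9.6 and 118 with IAA19mII and 26.7, 65.6 and 60.4 with IAA7mII, against 583, 407 and 598 with the empty vector. All 12 over-expressor arrays were below all 6 empty vector arrays (165 against 407), while within the over-expressor groups single arrays differed several-fold, IAA19mII mock replicate 2 reading 9.6, without which the smallest fall was -2.10. It was lower by 13-fold (IAA19mII with IAA), 7.27-fold (IAA19mII in mock), 9.69-fold (IAA7mII with IAA) and 8.36-fold (IAA7mII in mock).

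AT3G25930, of the universal stress protein family, had the next largest smallest fall. Arrays with IAA read 55.9, 24.6 and 69.7 with IAA19mII and 36.6, 24.1 and 2.4 with IAA7mII, against 1104, 879.5 and 731 with the empty vector. Mock arrays read 35.9, 110.0 and 82.8 with IAA19mII and 28.1, 14.4 and 73.5 with IAA7mII, against 556, 439 and 493 with the empty vector. The groups did not overlap (110.0 against 439), and the largest fall of a named member was that of AT3G25930 for IAA7mII with IAA, where its 3 arrays read 36.6 or less. The changes were -3.85 (IAA19mII with IAA), -2.56 (IAA19mII in mock), -4.75 (IAA7mII with IAA) and -3.37 (IAA7mII in mock), each ± 0.43.

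AT5G65240, a leucine-rich repeat receptor kinase gene, and AT1G07870, a receptor-like cytoplasmic kinase gene, fell less. AT5G65240 read 124 to 379 on the 12 over-expressor arrays, against 633 to 962 on the 6 empty vector arrays, and its changes were -1.58 (IAA19mII with IAA), -1.502 (IAA19mII in mock), -1.76 (IAA7mII with IAA) and -2.22 (IAA7mII in mock), each ± 0.24, the smallest of these being the closest of any member to the threshold. AT1G07870 read 57.0 to 259 on the 12 over-expressor arrays, against 526 to 1519.9 on the 6 empty vector arrays, with its largest fall, 6.67-fold, for IAA19mII with IAA, where IAA19mII IAA replicate 3 was the lowest of the 12 at 57.0. AT3G28940, of the AIG2-like family, read 61.2 to 184 on the 12 over-expressor arrays, against 278 to 472 on the 6 empty vector arrays, and its falls lay between 2.84-fold and 3.93-fold.

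**Figure D2:**
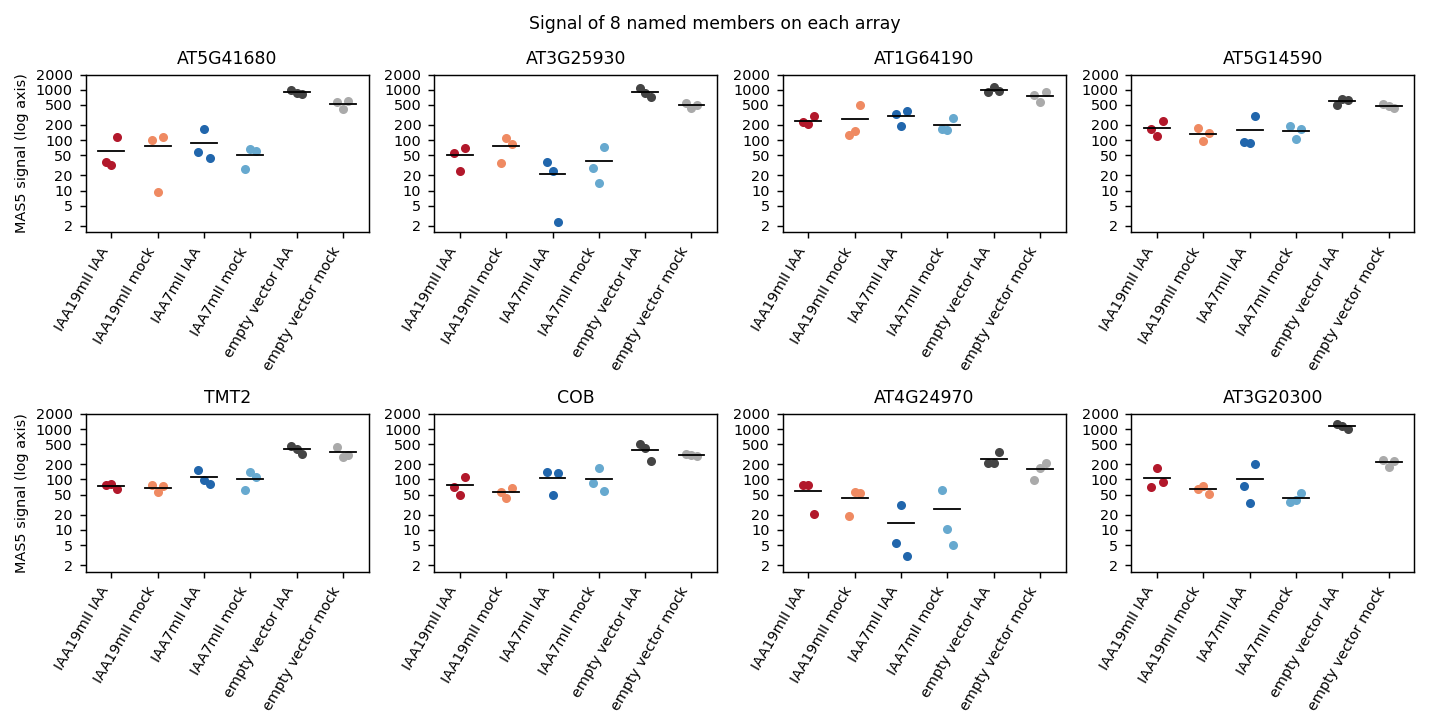
Signals of 8 named members on every array, on a log axis (MAS5 signal); points are arrays, horizontal bars are means of 3, and groups run from IAA19mII through IAA7mII to the empty vector. For AT5G41680, AT3G25930, AT1G64190, AT5G14590, TMT2, COB and AT4G24970 every over-expressor point is below every empty vector point, while for AT3G20300 1 IAA7mII point (199.5) is above the lowest empty vector mock point (180.5).

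Genes for nuclear proteins were represented by AT4G24970 and AT1G75490. AT4G24970 encodes a MORC ATPase, of a family that acts in chromatin silencing. Its IAA arrays read 78.6, 79.1 and 20.3 with IAA19mII and 5.6, 31.6 and 3.1 with IAA7mII, against 215, 209 and 353 with the empty vector. Its mock arrays read 18.9, 56.2 and 54.0 with IAA19mII and 62.6, 10.6 and 5.0 with IAA7mII, against 99.2, 173 and 216 with the empty vector. The falls were 3.89-fold (IAA19mII with IAA), 3.06-fold (IAA19mII in mock), 9.92-fold (IAA7mII with IAA) and 4.86-fold (IAA7mII in mock), and 6 of the 12 over-expressor arrays lay under the array's 40th percentile. AT1G75490 encodes a transcription factor of the DREB2 group, known in the response to drought and heat. It read 1.9 to 71.3 on the 12 over-expressor arrays, against 112 to 229 on the 6 empty vector arrays, with 7 of the 12 under the 40th percentile and changes of -2.71 (IAA19mII with IAA), -1.89 (IAA19mII in mock), -2.18 (IAA7mII with IAA) and -1.83 (IAA7mII in mock), each ± 0.48.

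COB encodes COBRA, a glycosylphosphatidylinositol-anchored protein needed for oriented expansion of root cells. COB read 70.9, 48.9 and 111 with IAA19mII and 139, 49.1 and 132 with IAA7mII, against 508, 426 and 231 with the empty vector (arrays with IAA). On mock arrays COB read 57.0, 43.4 and 69.1 with IAA19mII and 83.8, 169.8 and 59.0 with IAA7mII, against 319.7, 309 and 292 with the empty vector. The highest over-expressor array read 169.8 against 231 for the lowest empty vector array, and these were IAA7mII mock replicate 2 and empty vector IAA replicate 3. COB was lower by 4.3-fold (IAA19mII with IAA), 4.5-fold (IAA19mII in mock), 3.36-fold (IAA7mII with IAA) and 2.89-fold (IAA7mII in mock). AT5G40450, a gene known from the shaping of vacuoles, read 456 to 899 on the 12 over-expressor arrays, against 1754 to 2471 on the 6 empty vector arrays, and its 4 changes were close to each other at -1.56 (IAA19mII with IAA), -1.73 (IAA19mII in mock), -1.79 (IAA7mII with IAA) and -1.67 (IAA7mII in mock), each ± 0.24.

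AT3G04480 read 7.9 to 56.1 on the 12 over-expressor arrays, against 69.6 to 301 on the 6 empty vector arrays, so the empty vector arrays themselves differed several-fold. With IAA19mII it was lower by 5.08-fold with IAA and 5.03-fold in mock, and with IAA7mII by 3.34-fold and 2.87-fold. Among members that match no gene, 259592_at and 249063_at had the largest smallest falls. Probeset 259592_at read 6.3 to 191 on the 12 over-expressor arrays, against 218 to 565 on the 6 empty vector arrays, and IAA19mII IAA replicate 3, at 191, stood apart from the other 2 of its group at 16.5 and 6.3. Probeset 249063_at read 190.3 to 985 on the 12 over-expressor arrays, against 1176 to 2669 on the 6 empty vector arrays.

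The threshold divided neighbouring values. Just inside it were AT3G04480, AT3G28940 and AT5G65240, with smallest falls of -1.519, -1.506 and -1.502. Just outside were AT5G41670, AT1G32860 and AT3G14360, with -1.495, -1.485 and -1.484, so membership there turned on differences far under the standard errors.

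The members' response to IAA was not itself a criterion of the rule, which treats IAA and mock alike. It is taken from the same group means that chose the members. The counts of responding members given below are therefore shaped by the choice of members. In empty vector cells 8 of the 47 members (17%) rose with IAA and 0 fell (limma adjusted p under 0.05). Of all 16892 tested probesets, 0.734% were called in either direction, 56 higher and 68 lower. The tested probesets include some under the signal minimum that members had to meet, so the shares are not like for like. Only 1 of the 8, AT3G20300, matches a gene. With IAA it read 1246, 1155 and 982 in empty vector cells, against 242, 181 and 235 in mock, a rise of 4.88-fold (2.29 ± 0.39, limma adjusted p = 0.00152, higher on 3 of 3 arrays). In IAA19mII cells it read 70.8, 169.8 and 87.8 with IAA, against 66.1, 73.2 and 51.3 in mock, and in IAA7mII cells 75.5, 34.3 and 199.5, against 35.0, 38.4 and 53.6. Those responses, 0.59 ± 0.39 and 0.79 ± 0.39, did not pass (limma adjusted p = 0.703 and 0.668).

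The other 7 probesets that rose in empty vector cells match no gene in the annotation used. Probeset 245397_at rose most. With IAA it read 2243, 2580.2 and 2146 in empty vector cells, against 96.9, 159 and 163 in mock. It read 221, 186 and 264 with IAA in IAA19mII cells, against 27.0, 40.5 and 5.7 in mock, and 175, 298 and 313 in IAA7mII cells, against 12.8, 19.8 and 13.2. All 3 responses passed, at 2.66 ± 0.34 with IAA19mII, 3.12 ± 0.34 with IAA7mII and 3.94 ± 0.34 with the empty vector (limma adjusted p = 0.000136, 4.82e-06 and 2.35e-08). The over-expressor arrays with IAA lay above the empty vector arrays in mock and far below those with IAA.

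Probeset 260058_at read 5554, 4505 and 6977 with IAA in IAA19mII cells, against 493, 529 and 2527 in mock, where replicate 3 stood apart. In IAA7mII cells it read 2462, 3849 and 4988 with IAA, against 682, 298 and 484 in mock, and in empty vector cells 25432, 16885 and 13845, against 5121, 3461 and 5341. It rose in all 3 populations, by 2.65 ± 0.40 with IAA19mII, 2.92 ± 0.40 with IAA7mII and 1.99 ± 0.40 with the empty vector. Probeset 248164_at was the third that rose in all 3, by 2.05 ± 0.41 (limma adjusted p = 0.04), 2.43 ± 0.41 and 2.00 ± 0.41 in the same order; its call in IAA19mII cells was lost in 14 of 28 other settings, and those in IAA7mII and empty vector cells in 4 each. For 260058_at the call in empty vector cells was lost in 3 and that in IAA19mII cells in 1. Probeset 255788_at rose with IAA19mII (2.57 ± 0.43) and in empty vector cells (2.92 ± 0.43), while with IAA7mII its value was 2.08 ± 0.43 (limma adjusted p = 0.0621), which passed in 6 of 28 other settings; its call with IAA19mII was lost in 4.

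Probeset 246401_at showed the largest contrast between populations with IAA. It read 1325, 1063 and 1053 in empty vector cells with IAA, against 156, 61.9 and 119 in mock, a rise of 3.24 ± 0.48 (limma adjusted p = 0.000214). In the over-expressors it read 46.2 or less on all 12 arrays, with or without IAA, and 8 of the 12 lay under the 40th percentile. Its responses there were 0.21 ± 0.48 with IAA19mII and 0.48 ± 0.48 with IAA7mII, neither called.

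Probesets 247148_at and 257766_at were called as raised in IAA7mII and empty vector cells but not in IAA19mII cells. Probeset 247148_at read 541, 535 and 414 with IAA in IAA19mII cells, against 229, 297 and 280.1 in mock, 253, 168 and 325 in IAA7mII cells, against 65.7, 119.7 and 40.8, and 2868, 3228 and 3045 in empty vector cells, against 1115, 807 and 978. It rose by 1.58 ± 0.28 with IAA7mII and 1.65 ± 0.28 with the empty vector, and its value with IAA19mII was 0.85 ± 0.28 (limma adjusted p = 0.36). Probeset 257766_at rose by 1.56 ± 0.25 with IAA7mII and 1.51 ± 0.25 with the empty vector, with 0.85 ± 0.25 in IAA19mII cells (limma adjusted p = 0.293). There it read 896, 784 and 728 with IAA, against 335, 405 and 607 in mock. In IAA19mII cells both probesets thus read higher on every IAA array than on every mock array. The difference of responses for IAA19mII was called for neither (limma adjusted p = 0.988 each). The calls in IAA7mII cells were lost in 4 (247148_at) and 3 (257766_at) of 28 other settings, among them without IAA7mII IAA replicate 3 for both and without IAA7mII mock replicate 3 for 247148_at.

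In all, 4 members (8.51%) rose in IAA19mII cells and 5 (10.6%) in IAA7mII cells. Of all tested probesets 0.0888% were called in either direction in each, 13 higher and 2 lower with IAA19mII, and 12 and 3 with IAA7mII. All of the members that rose there were among the 8 that rose in empty vector cells, and 3 rose in all 3 populations. Leaving out IAA19mII mock replicate 1 or 2, or IAA19mII IAA replicate 3, gave a count of 2 in IAA19mII cells, and leaving out IAA7mII IAA replicate 3 gave 2 in IAA7mII cells. Of the 8 members raised in empty vector cells, the mean with IAA stayed below the empty vector mock mean for 5 in IAA19mII cells and 7 in IAA7mII cells. One in each count was a near tie within the spread of the arrays, 248164_at at 407 ± 108 in IAA19mII cells with IAA, against 408 ± 103 in empty vector mock cells, and 255788_at at 248 ± 125 in IAA7mII cells with IAA, against 251 ± 40.4 (SD, n = 3 each).

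The median response of the 47 was 0.18 with IAA19mII, 0.19 with IAA7mII and 0.41 with the empty vector, against 0.00, -0.02 and 0.03 over all tested probesets. In the same order, 33, 34 and 42 of the 47 were higher with IAA, against 50.4%, 47.4% and 54.2% of all tested probesets. The 39 members called in no response had medians of 0.10, 0.12 and 0.31 in the same order. No named member other than AT3G20300 passed in any response. The next largest values in empty vector cells were 0.83 ± 0.43 for AT3G25930 and 0.74 ± 0.50 for AT5G41680, and the lowest were -0.25 ± 0.31 for AT3G19400 and -0.25 ± 0.48 for AT5G16980 (none called). In IAA7mII cells AT5G65240 had 0.72 ± 0.24 and AT5G16980 -0.62 ± 0.48, and in IAA19mII cells AT5G40450 had 0.34 ± 0.24 and AT1G75490 -0.65 ± 0.48 (none called).

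**Figure D3:**
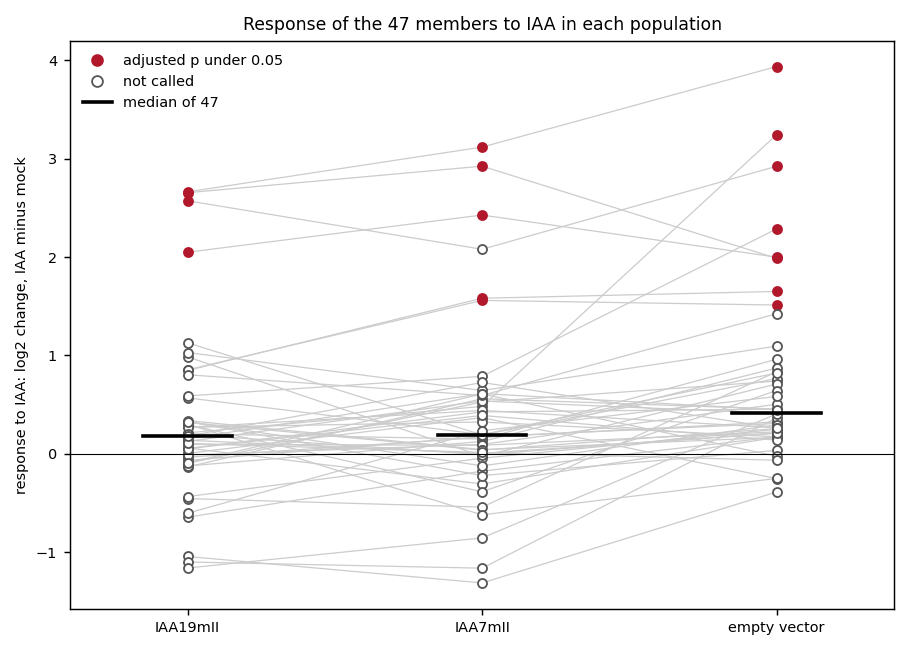
Response to IAA (log2 change, IAA minus mock) of each of the 47 members in IAA19mII, IAA7mII and empty vector cells; grey lines join the values of a member, filled points passed limma at an adjusted p under 0.05 and bars are medians (0.18, 0.19 and 0.41). All filled points, 4, 5 and 8, are rises.

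Whether a member responded differently in an over-expressor was tested as the difference of responses. This difference equals the change against the empty vector with IAA minus that in mock, and the rule used both changes. Probesets that fell with IAA only were left out by it, so the counts are shaped by the choice of members. None of the 47 passed for either plasmid by limma, where 0.0888% of all tested probesets passed for IAA19mII and 0.0651% for IAA7mII. At an unadjusted p under 0.05 there were 7 for IAA19mII and 4 for IAA7mII, all responding less than in the empty vector. Of all tested probesets, 2.37% did so for IAA19mII and 2.95% for IAA7mII. The median difference over the members was -0.30 for IAA19mII and -0.26 for IAA7mII, and -0.02 and -0.05 over all tested probesets. The largest differences among the 47 members were those of 246401_at, -3.03 ± 0.68 for IAA19mII and -2.76 ± 0.68 for IAA7mII (limma adjusted p = 0.0878 and 0.217), and the one for IAA19mII passed without IAA7mII IAA replicate 2 (limma adjusted p = 0.0425). Among members that match a gene AT3G20300 had the lowest values, -1.70 ± 0.55 for IAA19mII and -1.499 ± 0.55 for IAA7mII, followed by AT3G25930 with -1.29 ± 0.61 and -1.38 ± 0.61. At the other end were AT5G16980 with 0.55 ± 0.68 for IAA19mII and AT3G19400 with 0.62 ± 0.44 for IAA7mII.

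The over-expressors were also compared with each other. The rule treats both plasmids alike but requires both to lie well below the same empty vector. It thus leaves out probesets that are low with a single plasmid, so the counts below are shaped by the choice of members. In mock 2 of the 47 members differed, where 4.37% of all tested probesets did, and with IAA 2 differed, where 6.64% did. Both shares were 4.26% of the members. The same 2 members were called in each case, 247148_at and 257766_at, and both were higher with IAA19mII. In mock 247148_at read 229, 297 and 280.1 with IAA19mII, against 65.7, 119.7 and 40.8 with IAA7mII, a difference of 1.72 ± 0.28 (limma adjusted p = 0.000164, higher on 3 of 3 arrays). Probeset 257766_at read 335, 405 and 607 with IAA19mII, against 90.9, 165 and 168 with IAA7mII (1.56 ± 0.25, limma adjusted p = 0.00018). With IAA the differences were smaller, 0.99 ± 0.28 for 247148_at (limma adjusted p = 0.0291) and 0.86 ± 0.25 for 257766_at (limma adjusted p = 0.0399), and these calls were lost in 8 and 13 of 28 other settings. The count with IAA was 4 when IAA7mII IAA replicate 3 was left out, and 0 when IAA7mII IAA replicate 1, or IAA19mII IAA replicate 1 or 2, was. It was 1 without IAA7mII IAA replicate 2, empty vector mock replicate 1 or 3, or empty vector IAA replicate 2 or 3.

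No named member was called as different between the over-expressors. The values of the 19 ran from -0.81 to 0.81 in mock (lowest limma adjusted p = 0.107) and from -0.74 to 1.35 with IAA (lowest limma adjusted p = 0.11). The highest in mock were AT3G25930 (0.81 ± 0.43) and AT5G65240 (0.72 ± 0.24), and the lowest AT3G04480 (-0.81 ± 0.46) and COB (-0.64 ± 0.39). With IAA, AT4G24970 had the highest value (1.35 ± 0.50) and AT1G07870 the lowest (-0.74 ± 0.35). AT4G24970 passed when IAA7mII IAA replicate 2 was left out (limma adjusted p = 0.0494) or IAA19mII IAA replicate 3 was (limma adjusted p = 0.0396).

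Relatives of 9 member genes were looked up after the members were known, 31 genes in all, of which 16 in 8 families had a named probeset that passed the filter. Against the empty vector 3 of the 16 were called lower in all 4 comparisons, 4 in 1 to 3 of them and 9 in none, and 0 were called higher (limma adjusted p under 0.05). By comparison, 5 were lower for IAA19mII with IAA, 4 for IAA19mII in mock, 6 for IAA7mII with IAA and 5 for IAA7mII in mock, where 14.3%, 7.83%, 11.7% and 6.09% of all tested probesets were called lower in that order. The changes of single genes keep the same order. Of the other 6-phosphogluconate dehydrogenase genes, AT5G41670, the gene nearest outside the threshold, was lower in all 4, at -2.04, -1.495, -1.88 and -1.66 (each ± 0.38). The other, AT3G02360, was lower for IAA7mII only by call, at -0.21, 0.11, -0.91 and -0.95 (each ± 0.21), and the difference between the plasmids passed as well, by 1.06 in mock (limma adjusted p = 0.00237) and 0.70 with IAA (limma adjusted p = 0.0491).

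Both isocitrate dehydrogenase relatives of AT5G14590 fell in part. ICDH changed by -1.56, -1.35, -1.14 and -0.99 (each ± 0.33), lower in 3 of 4, and in 2 of 4 after median centring. The cytosolic isozyme gene cICDH changed by -0.19, -0.44, -1.26 and -0.94 (each ± 0.25), lower in both IAA7mII comparisons and called in neither IAA19mII comparison. In the FAX family AT3G43520 was lower in all 4, at -1.07, -1.02, -1.75 and -1.14 (each ± 0.27), while AT3G57280 (-0.09, -0.28, -0.22 and -0.24 (each ± 0.22)) and AT1G33265 (0.02, -1.04, -0.27 and -0.62 (each ± 0.38)) were not called.

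Next to AT5G16980 on the chromosome, AER, the 2-alkenal reductase gene, was lower in all 4, at -0.63, -0.76, -0.70 and -1.04 (each ± 0.21), but in only 1 of 4 after median centring. AT5G16960 was called lower in 1 comparison, IAA19mII with IAA, at -1.57, -0.64, -1.07 and -0.18 (each ± 0.49), and in none after quantile normalization; the difference between the plasmids with IAA was not called (-0.50, limma adjusted p = 0.624). AT5G16990 was called in none. The relatives of TMT2 were not called either: TMT1, at -0.17, 0.11, -0.28 and -0.07 (each ± 0.41), and TMT3, at -0.37, -0.14, 0.68 and -0.04 (each ± 0.42), were set beside TMT2 at -2.20 to -1.62. The MORC relatives of AT4G24970 (AT5G50780 and AT5G13130), the AIG2-like AT3G28950 and the DREB2 gene AT5G18450 were not called.

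**Figure D4:**
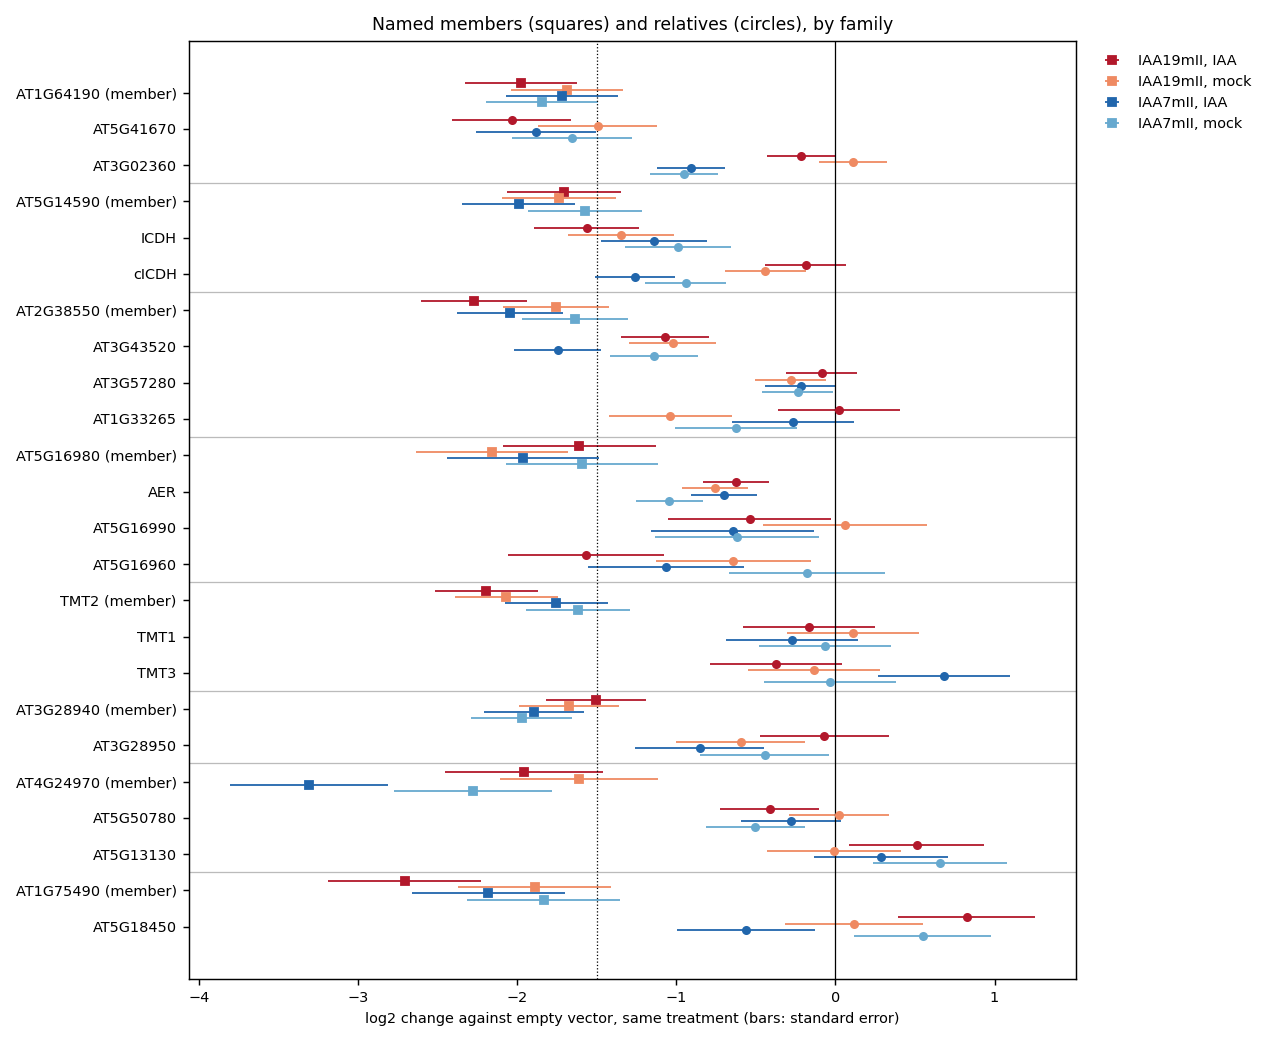
Log2 change against the empty vector under the same treatment for 8 named members (squares) and 16 relatives (circles), by family; colours are the 4 comparisons, bars are standard errors, and the dotted line is the threshold of -1.5. AT5G41670 and AT3G43520 lie well left of 0 in all 4 comparisons, and TMT1 and TMT3 lie around 0 beside TMT2.

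The named members were spread over all chromosomes, with 3 on chromosome 1, 1 on chromosome 2, 5 on chromosome 3, 3 on chromosome 4 and 7 on chromosome 5. Of the genes next to a named member, 19 beside 15 member genes had a named probeset that passed the filter. Only AER and AT5G41670, which is the neighbour of AT5G41680, were called lower in all 4 comparisons. A further 4 were called in 1 to 3 of them. AT3G25940, beside AT3G25930, was lower with IAA in both over-expressors, at a mean signal of 2.90 (IAA19mII) and 7.70 (IAA7mII), against 46.4 with the empty vector. In the order IAA19mII with IAA, IAA19mII in mock, IAA7mII with IAA and IAA7mII in mock, AT5G41685 (-1.79, -0.91, -0.51 and -1.12) and AT5G65250 (-1.66, -0.53, -0.34 and -0.06) were called lower for IAA19mII with IAA, and both had values below 0 in all 4 comparisons with the authors' scaling. AT3G19390, beside AT3G19400, was higher with IAA in both over-expressors, a difference that was not called after quantile normalization. The other 13 were called in none, apart from PUP15, which was higher in 1 comparison after median centring.

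Only the 19 members that match a gene could be looked up in the 13 gene lists, and 0 of them were in any. The 28 members without a gene could not be placed, so whether they belong to a list was not tested. The lists hold 137 genes, of which 30 had a named probeset that passed the filter. The list of early auxin genes, a group that Aux/IAA proteins are known to repress, had 9 of 15 genes tested. All 9 rose with IAA in empty vector cells, though the list was chosen with earlier results of these data known. Against the empty vector, 8 of the 9 were lower for IAA19mII with IAA, 2 for IAA19mII in mock, 9 for IAA7mII with IAA (8 after quantile normalization) and 4 for IAA7mII in mock. The shares of all tested probesets called lower were 14.3%, 7.83%, 11.7% and 6.09% in the same order. The list's median change was -2.34 for IAA19mII with IAA, -0.34 for IAA19mII in mock, -3.21 for IAA7mII with IAA and -0.99 for IAA7mII in mock. For the 47 members, the corresponding medians with IAA and in mock were -2.14 and -1.80 for IAA19mII and -2.30 and -2.00 for IAA7mII. The difference between the 2 lists was not tested, since the members were chosen for low values in mock as well.

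Of the 31 genes of the low oxygen list 13 were tested. Against the empty vector, 1 was lower for IAA19mII with IAA, 2 for IAA19mII in mock, 1 for IAA7mII with IAA and 4 for IAA7mII in mock, where the shares of all tested probesets called lower were 14.3%, 7.83%, 11.7% and 6.09%. The first and the third count, 1 of 13 each, lay under those shares. Over the 4 comparisons these are 8 lower calls, against 7 after median centring and 10 after quantile normalization. CML38 was called higher for IAA19mII with IAA, the 1 higher call, where median centring gave 2 and quantile normalization 0. The list's median change was 0.06 for IAA19mII with IAA, -0.35 for IAA19mII in mock, 0.06 for IAA7mII with IAA and -0.72 for IAA7mII in mock. The 1 tested gene of the abscisic acid list and the 3 of the sugar starvation list were not called in any of these comparisons, although after quantile normalization LTI30 was lower in 3 and MCCB in 4. STZ, the 1 of the touch and wounding list, was higher for IAA19mII with IAA. Genes of the jasmonate and the mitosis lists were not analysed here.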

How the data were processed

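Expression was measured on 18 arrays, 3 in each of 6 groups. The authors deposited 1 linear intensity per probeset and array. Per the submitters' processing notes these are MAS5 signals, of a version not given in the sources used; the authors' scaling of the intensity values was kept. The members and the gene lists were chosen with earlier results of these data known. Probesets entered the fit if at least 3 arrays read above the array's own 40th percentile, which left 16892. The model in limma 3.58.1 (R 4.3.3) took log2(signal + 16) with a mean for each group and an empirical Bayes prior that follows intensity, and p-values were adjusted by Benjamini-Hochberg over all tested probesets within each comparison. The fit was tested on simulated data. For the difference of responses it recovered 6 (IAA19mII) and 4 (IAA7mII) of 100 added changes of log2 1. Of 100 added changes of log2 2 it recovered 52 and 44. In the other tested comparisons it recovered 16 to 30 and 71 to 86 of 100. A difference of responses that did not pass may therefore have been missed, and so may a change near log2 1 in the other comparisons. The number of arrays limits the precision, and arrays within a group correlated at 0.918 to 0.973 with 0 identical pairs.

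Gene names come from a probe table for this platform, in which 13513 of the 22746 probesets have 1 gene, 503 several and 8730 none, and from a gene table of assembly TAIR10.1, used for names and neighbours only. Named are all members that match 1 gene, all members called in a tested comparison, and the 2 members without a gene whose smallest fall is largest; the same rule gave the genes just outside the threshold and the extremes of each comparison. Relatives were chosen after the members were known. Alternatives were other pseudocounts, filters and scalings, no intensity trend, array weights, fits of the compared groups alone, a replicate block, other thresholds for membership and leaving out each array. A batch block was not run, because the array files used here give no chip lot, station or date. Promoter sequences and RNA quality probesets were not analysed here.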

Additional observations from a re-analysis of the deposited data

How the results depend on the processing

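How many probesets met the rule depended on its settings: 87 with a pseudocount of 1, 11 with 64, 30 after median centring, 27 after quantile normalization (25 of them among the 47), 284 with a fall of 1.0, 7 with a fall of 2.0, 37 where no array may overlap, and 38 to 55 when leaving out 1 array, of which 35 to 45 were among the 47. Leaving out empty vector mock replicate 1 again gave 47, with 36 shared, and leaving out IAA19mII mock replicate 1 gave 38, with 35 shared. Median centring also moved the split of calls against the empty vector, of which 39.0% to 47.9% were lower, 46.0% to 53.0% after quantile normalization, against 53.3% to 60.7% with the authors' scaling. Probesets called lower numbered 1105 for IAA7mII with IAA and 819 for IAA19mII in mock after median centring, against 1984 and 1323 with the authors' scaling. The smallest falls of the 19 named members, whose sign the rule all but fixed, moved by more than the spread between replicates in 5 cases, among them AT4G16710, with -2.32 at a pseudocount of 1 and -0.97 at 64.

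The count of members raised by IAA in empty vector cells was 6 to 11 under the alternatives and 7 to 8 when leaving out 1 array. With IAA7mII it was 2 without the intensity trend, 2 with only the compared groups, and 2 to 6 when leaving out 1 array. With IAA19mII it was 1 without the trend and 2 to 4 when leaving out 1 array. With a pseudocount of 64, 246401_at passed the difference of responses for IAA7mII (1 member), and 246401_at and 245397_at that for IAA19mII (2 members), where 246401_at alone passed with array weights or only the compared groups (1 member each); leaving out 1 array gave 0 for IAA7mII and 0 to 1 for IAA19mII. The 2 members that differed between the over-expressors in mock were called under every alternative run. With IAA the count was 0 after median centring, without the trend, with array weights and with only the compared groups, and 0 to 4 when leaving out 1 array. The cause of these changes was not tested. A group short of 1 array has 2, and its spread is then taken from all groups together.

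Same-numbered arrays of different groups deviated together weakly at most: 1 of 45 pairs correlated above 0.1 (range -0.06 to 0.16). No strong pairing by replicate number was thus seen, although such values cannot show how the samples were handled. With the replicate number as a block (replicate block), members raised by IAA numbered 4 with IAA19mII, 6 with IAA7mII (255788_at added) and 8 with the empty vector, 0 passed either difference of responses, and 2 differed between the over-expressors in mock and 2 with IAA. Low signals limit the over-expressor values, since 22 members read under the 40th percentile of at least 1 such array.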
